A study of Homo sapiens with 12 samples.

Results

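The genes described here are the 116 protein-coding genes that lie wholly between 47.4 and 50.63 Mb on human chromosome 19 (GRCh38), the stretch that holds both clusters of the snaR-A genes. Of the 131 protein-coding genes that GENCODE places there, 129 had a row among the 63541 rows of the count table. Of those 129, 13 were left out by symbol, namely the zinc finger genes (ZNF), the ribosomal protein genes (RPL and RPS) and LIG1, POLD1, SNRNP70, IRF3, BAX, PPP1R15A and ATF5. Expression came from HEK293T, an immortalised human embryonic kidney cell line, 48 h after transfection with 12.5 nM siRNA. There were 4 groups of 3 replicates, a scramble siRNA (the control), si-snaR-A#1, the second siRNA si-snaR-A#2 and the third, si-snaR-A#3 (siRNA #1, #2 and #3 below), 12 libraries in all. All groups were transfected, the scramble group included, and the 3 siRNAs were aimed at the same 3′-proximal stretch of the RNA. The study describes the replicates of a group as biological and as handled on 1 day, so p-values measure the spread between samples of that day. The level of snaR-A itself is not analysed here, so the labels of the libraries were not checked against their target.

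snaR RNAs are short noncoding RNAs transcribed by RNA polymerase III, an enzyme that makes tRNAs and 5S rRNA and stops at a run of T in the DNA. Their genes sit on chromosome 19 in tandem repeats, and related copies lie beside the chorionic gonadotropin beta genes, which encode the hormone subunit made by the placenta. The neighbouring protein-coding genes include housekeeping genes of RNA processing and membrane traffic next to genes that are normally used in a few tissues, such as the retina, liver, brain, testis and blood.

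The snaR-A sequences are shown first, since they place the target among the neighbouring genes. The RefSeq gene table holds 14 snaR-A genes on GRCh38, 5 on the plus strand in the first cluster and 9 on the minus strand in the second, and these 14 have 3 distinct sequences. They are given 5′ to 3′ on the strand that ends in the run of T, which is in capitals:
SNAR-A3: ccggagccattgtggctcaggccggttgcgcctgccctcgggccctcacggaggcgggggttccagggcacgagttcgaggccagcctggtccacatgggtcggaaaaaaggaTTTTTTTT
SNAR-A1: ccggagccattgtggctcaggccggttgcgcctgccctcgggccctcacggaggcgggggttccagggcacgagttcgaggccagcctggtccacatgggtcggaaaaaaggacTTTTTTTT
SNAR-A12: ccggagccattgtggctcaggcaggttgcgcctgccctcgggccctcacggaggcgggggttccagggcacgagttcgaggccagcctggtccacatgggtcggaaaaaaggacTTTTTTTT
The first of these, of 121 bases, is shared by 10 genes, SNAR-A3 at chr19:47923779-47923899 in the first cluster and all 9 genes of the second cluster. SNAR-A1 (chr19:47918429-47918550, plus strand) is identical to SNAR-A2, and SNAR-A12 (chr19:47907678-47907799, plus strand) is identical to SNAR-A13. Both sequences have 122 bases, and SNAR-A12 differs from SNAR-A1 by the substitution C23A, counted from 1 at the 5′ end. For comparison, the related copies SNAR-C5 (chr19:47913051-47913170, plus strand), which lies between the snaR-A genes of the first cluster, and SNAR-G2 (chr19:49031669-49031787, minus strand), which lies beside CGB2, read:
SNAR-C5: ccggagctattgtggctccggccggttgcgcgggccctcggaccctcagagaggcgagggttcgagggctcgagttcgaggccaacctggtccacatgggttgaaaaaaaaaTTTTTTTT
SNAR-G2: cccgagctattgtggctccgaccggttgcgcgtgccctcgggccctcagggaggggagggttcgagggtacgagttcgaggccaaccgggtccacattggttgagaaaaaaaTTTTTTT
In a global alignment SNAR-C5 was 87.6% and SNAR-G2 85.2% identical to SNAR-A3.

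Library totals were between 120.4 and 180.1 M counts, and the 116 genes took between 0.202% and 0.234% of the counts of a library. The 3 siRNA #1 libraries stood apart from the rest, with 45.2% of all 21999 tested genes called against scramble, beside 25.8% for siRNA #2 and 29.4% for siRNA #3, so results that average the siRNAs are also given without them. A gene was called where its Benjamini-Hochberg adjusted p, over all 21999 genes in edgeR's quasi-likelihood test, was under 0.05. The cells carried some of the simple epithelial markers. The mean in scramble was 29.9 CPM (counts per 1000000 counts of the library) for KRT18. It was 10.6 CPM for CDH1, 7.66 CPM for KRT8, 5.49 CPM for PAX2 and 1.86 CPM for EPCAM. But PAX8, CDH6 and KRT19 were at 0.0384, 0.0197 and 0.0018 CPM. Of the differentiated nephron, UMOD, AQP2 and SLC12A1 were at 0, NPHS1 at 0.0796 CPM and AQP1 at 0.510 CPM. The summed level of the 8 epithelial markers, with KRT18 the largest part, was between 48.8 and 59.5 CPM over the 12 libraries. That of 3 blood cell markers was between 0 and 0.116 CPM. In the set of 3 endothelial and fibroblast markers the sum was between 13.0 and 27.1 CPM. It came mostly from COL1A1, which was at 25.4 CPM in scramble on average. The part of these markers in the results below was not tested.

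Of the 116 genes, 96 passed the filter on low counts and were tested. Their mean level over the 12 libraries ran from 0.0408 to 253 CPM with a median of 5.99 CPM, against a median of 7.02 CPM over all tested genes. There were 69 tested genes at 1 CPM or more and 27 below, 42 at 10 CPM or more and 5 at 100 CPM or more. The 20 untested genes reached at most 0.103 CPM in any library. They included 5 of the 7 gonadotropin beta genes (LHB, CGB1, CGB3, CGB5 and CGB8) and the genes nearest the edges used here for each snaR-A cluster. BSPH1, a sperm-binding protein gene 18.0 kb from the first cluster, was listed at 0 in all 12 libraries, and IZUMO2, a sperm membrane protein gene 22.5 kb from the second cluster, was at 0.0527 CPM on average. Many of these genes lie close together, and 57 of the 116 have an exon that overlaps an exon of another gene, 25 of them on the same strand. Since the use of strand in the authors' quantification is not stated, reads from such partners may not have been told apart.

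With the 3 siRNAs averaged, more of the neighbouring genes rose than fell. Of the 96 tested genes 38 were called, 26 higher and 12 lower, or 28 higher and 7 lower without scramble replicate 3. Over all 21999 tested genes 32.2% were called in that comparison, 15.6% higher and 16.6% lower, so 39.6% of the neighbouring genes stood beside 32.2% of all genes, and 27.1% called higher beside 15.6%. The other 1016 tested protein-coding genes of chromosome 19 gave 38.5% called, 22.2% higher and 16.2% lower. The share of neighbouring genes called was thus close to that of the rest of the chromosome, and no test of a difference between the 2 sets was made. The median log2 fold change was 0.00 for the 96 genes (quartiles -0.18 and 0.20), 0.00 for the rest of the chromosome and -0.04 for all genes. Without the siRNA #1 libraries, the mean of siRNA #2 and siRNA #3 gave 32 genes called, 18 higher and 14 lower, beside 30.9% of all genes. Levels mattered for the count, since 37 of the 69 genes at 1 CPM or more were called (53.6%, beside 43.7% of all genes at that level) but 1 of the 27 below 1 CPM.

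Each siRNA against scramble gave a different count. With siRNA #1, 50 of the 96 genes were called, 35 higher and 15 lower, where 21.9% of all genes were called higher and 23.3% lower. The lower count was 9 when replicate 1 of siRNA #1, scramble replicate 1 or scramble replicate 3 was left out. With siRNA #2, 29 were called, 16 higher and 13 lower, beside 13.7% and 12.1% of all genes. With siRNA #3, 34 were called, 18 higher and 16 lower, beside 16.5% and 13.0%. Here the lower count was 7 without replicate 2 of siRNA #3, 10 without its replicate 1, 9 without scramble replicate 1 and 10 without scramble replicate 3. The median log2 fold change of the 96 genes was 0.12, -0.02 and 0.04 with the 3 siRNAs in that order, and over all genes it was -0.02, -0.03 and -0.03. These comparisons share the scramble libraries. The share of called genes that were higher depended on the scaling for siRNA #2 and siRNA #3, with 55.2% for siRNA #2 and 44.8% under upper quartile scaling, and 52.9% for siRNA #3, 63.6% under RLE scaling and 48.6% under upper quartile scaling. Between siRNAs, 47 genes differed between siRNA #1 and siRNA #2 and 48 between siRNA #1 and siRNA #3, beside 46.7% and 48.6% of all genes. Between siRNA #2 and siRNA #3 there were 18, beside 15.6% of all genes, a count that dropped to 9 without siRNA #2 replicate 1 and to 11 without siRNA #2 replicate 2 or siRNA #3 replicate 2. All 9 siRNA libraries lay above all 3 scramble libraries for 14 of the 96 genes and below them for 4, where 6.62% and 5.5% of all genes did so.

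**Figure D1:**
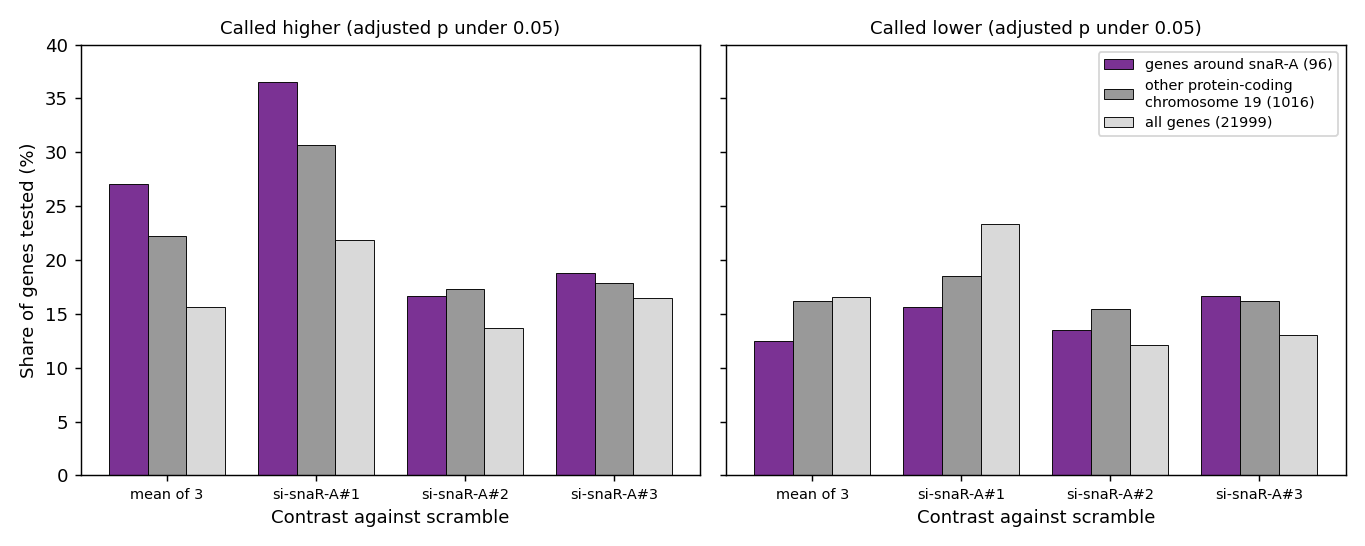
Share of tested genes (%, vertical axis) called higher (left) or lower (right) against scramble for the mean of the 3 siRNAs and for each siRNA. Bars are the 96 tested genes around snaR-A, the other 1016 tested protein-coding genes of chromosome 19 and all 21999 tested genes. The widest gap between the genes around snaR-A and all genes is for calls higher with siRNA #1, 36.5% against 21.9%.

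Called genes of both directions lay near to and far from the snaR-A clusters. Distance was measured from the nearer end of a gene to the nearer edge of a cluster, taken as 47910 to 47950 kb and 50090 to 50130 kb. Of 6 tested genes within 100 kb, 2 were called with the siRNAs averaged, 1 higher and 1 lower, with a median log2 fold change of -0.23. From 100 to 250 kb, 8 of 17 were called, 6 higher and 2 lower, with a median of 0.12. From 250 to 500 kb, 12 of 29 were called, 9 higher and 3 lower, with a median of 0.07, and beyond 500 kb 16 of 44, 10 higher and 6 lower, with a median of -0.11. The shares called were 33.3%, 47.1%, 41.4% and 36.4% in that order, beside 32.2% of all genes (15.6% higher and 16.6% lower). The bins also differed in level, with medians of 1.40, 22.3, 10.2 and 2.27 CPM, so these shares are not directly comparable. The bin within 100 kb held 3 genes under 1 CPM. Its median log2 fold change became 0.13 when only genes at 1 CPM or more were kept, and it was -0.060 without scramble replicate 3. In the bin from 100 to 250 kb the median was 0.0092 without scramble replicate 2, 0.04 without siRNA #2 replicate 2 and 0.06 without siRNA #1 replicate 3. Beyond 500 kb it was -0.07 without scramble replicate 1 or replicate 3. As a description across genes, which are not replicates and share the same libraries, the correlation of the log2 fold change with distance was r = -0.13 (Spearman -0.13) over 96 genes and r = -0.05 (Spearman -0.07) over the 69 genes at 1 CPM or more. By siRNA it was 0.10 with siRNA #1, -0.20 with siRNA #2 and -0.21 with siRNA #3 over the 96 genes, and -0.04, -0.04 and -0.03 over the 69. The mean level itself also went down slightly with distance (r = -0.21 on a log10 scale). By cluster, 18 of 44 genes nearest the first cluster were called (40.9%), 11 higher and 7 lower. Nearest the second it was 20 of 52 (38.5%), 15 higher and 5 lower, beside the same 32.2% of all genes.

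**Figure D2:**
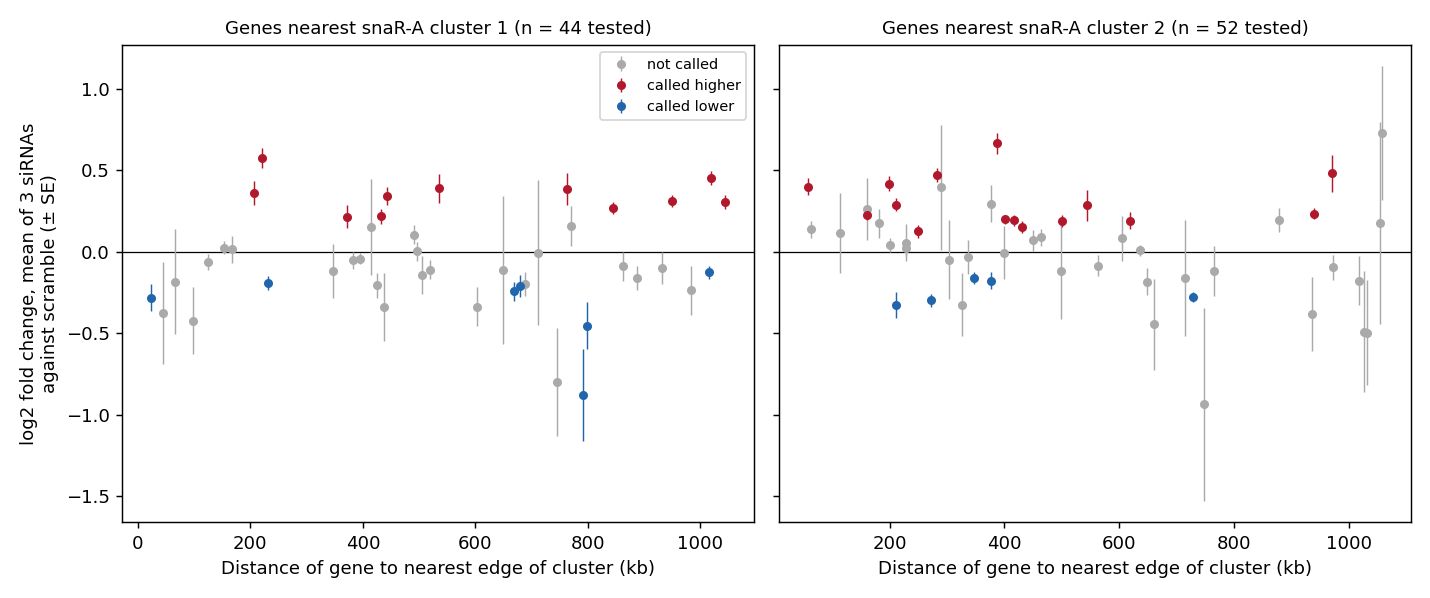
log2 fold change of each tested gene, siRNAs averaged, against scramble (vertical axis, ± SE) by its distance in kb to the first (left, 44 genes) or second (right, 52 genes) snaR-A cluster. Red and blue points are called higher and lower, grey points are not called. Called genes of both directions lie at short and long distances on each side.

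Nearest the first cluster, SULT2A1 was the tested gene that responded, and it did so differently with each siRNA. SULT2A1, a sulfotransferase that conjugates steroids and bile acids in liver and adrenal, lies 23.7 kb away at chr19:47870467-47886315 on the minus strand. Its level was 2.34, 2.33 and 2.54 CPM in scramble, 2.93, 2.80 and 2.87 CPM with siRNA #1, 1.34, 1.32 and 1.57 CPM with siRNA #2 and 2.06, 1.88 and 1.81 CPM with siRNA #3. The siRNA #1 libraries were above all scramble libraries and the other 6 below them. SULT2A1 fell by 0.77 on the log2 scale with siRNA #2 (SE 0.11, adjusted p = 0.000158) and by 0.33 with siRNA #3 (SE 0.10, adjusted p = 0.031), and the change with siRNA #1 was 0.25 (SE 0.10, adjusted p = 0.0636). The difference between siRNA #1 and siRNA #2 was 1.03 (SE 0.11, adjusted p = 4.82e-06). The call with siRNA #3 was lost without any 1 of the scramble libraries (adjusted p of 0.0563, 0.0542 and 0.107) and without replicate 2 (adjusted p = 0.0886) or 3 (adjusted p = 0.0951) of siRNA #3. In the mean of the 3 it fell by 0.28 (adjusted p = 0.0202), a call that was lost without scramble replicate 3 (-0.23, adjusted p = 0.116) and with no filter on low counts (adjusted p = 0.0925).

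The other genes near the first cluster did not pass the test in the mean of the siRNAs. ELSPBP1, an epididymal sperm-binding protein gene 44.6 kb away, was between 0.117 and 0.363 CPM over the 12 libraries. CRX, a photoreceptor transcription factor gene 66.7 kb away, was between 0.299 and 0.957 CPM, and its log2 fold change was -0.19 (adjusted p = 0.712). PLA2G4C, a phospholipase gene 97.8 kb away, was at 0.953, 0.678 and 0.786 CPM in scramble and between 0.448 and 0.812 CPM in the siRNA libraries. Its change of -0.42 had an adjusted p of 0.140, and of 0.0380 without siRNA #1 replicate 3. SELENOW, a small selenoprotein gene 125.3 kb away, was the most abundant of these, at 22.9, 22.6 and 23.6 CPM in scramble and between 20.03 and 24.4 CPM in the other libraries. The groups overlapped for all of these genes.

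Nearest the second cluster, MYH14 rose with every siRNA. MYH14, a nonmuscle myosin heavy chain gene, lies 58.2 kb away at chr19:50188186-50310542 on the plus strand. Its level was 15.3, 15.6 and 17.5 CPM in scramble, 23.02, 23.7 and 21.4 CPM with siRNA #1, 18.5, 19.2 and 18.6 CPM with siRNA #2 and 22.7, 23.6 and 20.8 CPM with siRNA #3. All 9 siRNA libraries were above the scramble libraries, and those of siRNA #2 were the nearest to them. The rise was 0.50 with siRNA #1 (SE 0.06, adjusted p = 3.45e-05), 0.22 with siRNA #2 (SE 0.06, adjusted p = 0.0221) and 0.47 with siRNA #3 (SE 0.06, adjusted p = 0.000122). The rise with siRNA #2 was smaller than with siRNA #1 by 0.27 (adjusted p = 0.00322), and its call was lost without siRNA #2 replicate 2 (adjusted p = 0.0762) or replicate 3 (adjusted p = 0.0521) and without scramble replicate 1 (0.18, adjusted p = 0.0888) or replicate 2 (adjusted p = 0.0801).

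VRK3, a nuclear kinase-like gene 64.1 kb from the second cluster, rose with siRNA #1 by 0.23 (SE 0.06, adjusted p = 0.00889). It was at 30.7, 31.9 and 35.5 CPM in scramble, 39.4, 39.9 and 36.1 CPM with siRNA #1, and between 31.9 and 37.2 CPM with the other siRNAs. In the mean of the 3 its change was 0.14 (adjusted p = 0.0650), and it was called without scramble replicate 3 (0.21, adjusted p = 0.0132) or siRNA #1 replicate 3 (adjusted p = 0.0327). NUP62, a protein of the nuclear pore 160.2 kb away, was one of the most abundant genes of the stretch, at 84.6, 83.1 and 85.0 CPM in scramble. It rose with siRNA #1 to 118, 113 and 110 CPM (0.43, SE 0.04, adjusted p = 1.17e-06) and with siRNA #3 to 94.2, 93.8 and 99.7 CPM (0.19, SE 0.04, adjusted p = 0.00239). With siRNA #2 it was at 89.0, 86.2 and 85.8 CPM (0.05, adjusted p = 0.413). SIGLEC16, a lectin of myeloid cells 114.2 kb away, and IL4I1, an amino acid oxidase of immune cells that shares exons with NUP62 on the same strand, were at or below 0.443 CPM in every library with overlapping groups.

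**Figure D3:**
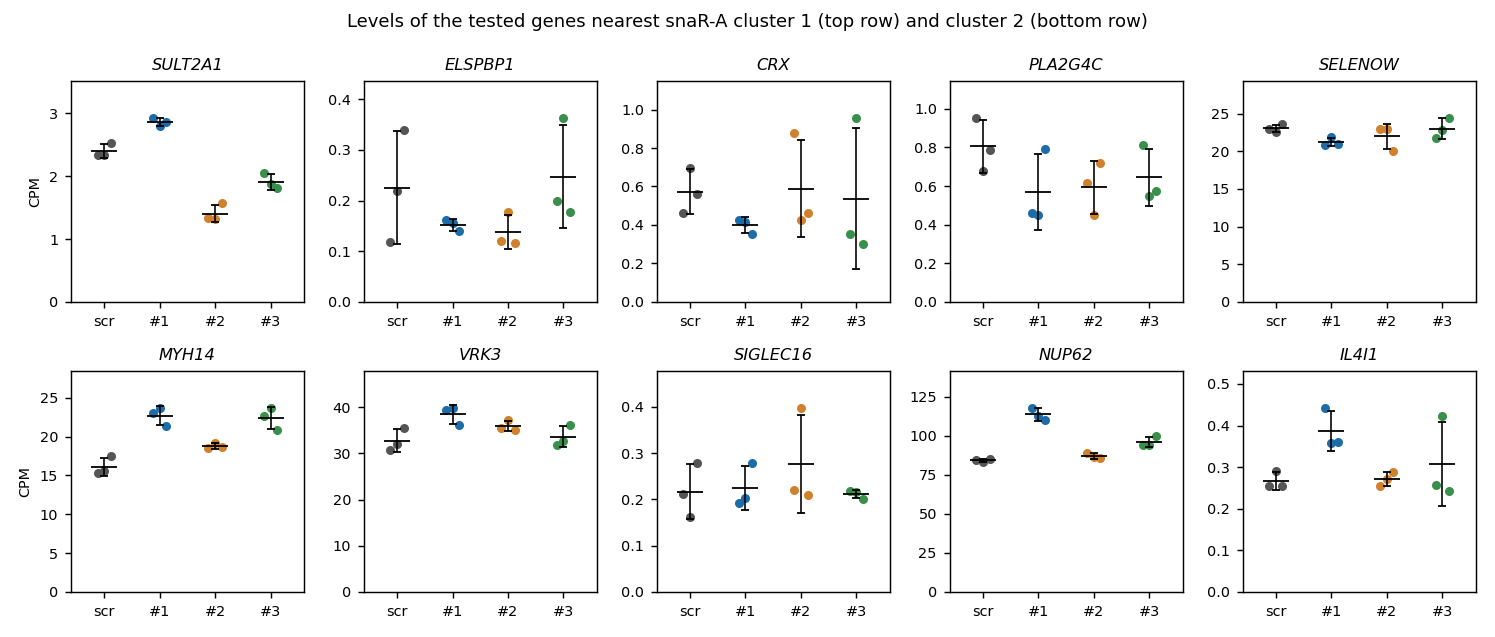
Levels in CPM (vertical axis, from 0) of the 5 tested genes nearest the first cluster (top row) and the second cluster (bottom row). Points are libraries of scramble (scr) and of siRNA #1, #2 and #3, and bars are mean ± SD (n = 3). SULT2A1 is lowest with siRNA #2, and MYH14 is higher in all 9 siRNA libraries than in scramble.

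Among the genes that moved one way with all 3 siRNAs, and had all 9 libraries on one side of scramble, 9 rose and 2 fell at a mean level of 1 CPM or more. These were 13.0% and 2.90% of the 69 genes at that level, beside 7.32% and 3.75% of all 14529 genes at that level under the same rule. The largest rise was that of LRRC4B, a synaptic adhesion protein gene 386.9 kb from the second cluster at chr19:50516892-50568435. It was at 6.53, 7.06 and 7.52 CPM in scramble, 11.2, 10.9 and 10.3 CPM with siRNA #1, 10.3, 10.3 and 9.33 CPM with siRNA #2 and 11.7, 13.3 and 13.4 CPM with siRNA #3. The siRNA #3 libraries were the highest, and the groups did not overlap with scramble. The mean change was 0.66 (SE 0.06, adjusted p = 7.88e-06), and the rise with siRNA #3, 0.87, was larger than with siRNA #1 by 0.25 (adjusted p = 0.0159) and with siRNA #2 by 0.36 (adjusted p = 0.00649). The first of these differences did not pass without replicate 3 of siRNA #1 (adjusted p = 0.0557) or replicate 2 or 3 of siRNA #3 (adjusted p = 0.0619 and 0.0591). ZSWIM9, a zinc finger SWIM-type gene of little known function 220.7 kb from the first cluster, was at 10.4, 10.1 and 9.19 CPM in scramble and between 13.1 and 16.9 CPM in the 9 siRNA libraries. Its mean change was 0.57 (SE 0.06, adjusted p = 1.7e-05).

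AP2A1, a subunit of the AP-2 adaptor that collects cargo into clathrin-coated pits, rose to a like extent with each siRNA. It was at 59.8, 61.3 and 65.7 CPM in scramble, 86.6, 85.7 and 80.0 CPM with siRNA #1, 88.5, 94.4 and 85.2 CPM with siRNA #2 and 80.4, 87.8 and 87.2 CPM with siRNA #3, a mean change of 0.47 (SE 0.04, adjusted p = 6.62e-06). Pairs of siRNAs differed by at most 0.09 for AP2A1 (adjusted p = 0.197 and above). GYS1, the glycogen synthase of muscle and most other tissues, was at 53.8, 52.4 and 49.0 CPM in scramble, 60.1, 60.2 and 65.0 CPM with siRNA #1, 74.8, 84.1 and 79.6 CPM with siRNA #2 and 73.8, 72.3 and 70.0 CPM with siRNA #3. Here siRNA #1 gave the smallest rise, 0.26, which was 0.36 below that with siRNA #2 (adjusted p = 7.73e-05). NR1H2, which encodes the oxysterol receptor LXR beta, was between 17.9 and 19.2 CPM in scramble, 20.3 and 22.3 CPM with siRNA #1, 23.8 and 27.3 CPM with siRNA #2 and 27.2 and 28.4 CPM with siRNA #3. Its rise of 0.22 with siRNA #1 was likewise smaller than the 0.59 with siRNA #3 (difference -0.36, adjusted p = 0.000195). Besides MYH14, the remaining 3 that rose were BCAT2 (0.27), NUCB1 (0.31) and RUVBL2 (0.30).

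The 2 genes that fell with all 3 siRNAs were FUZ and SPHK2. FUZ, a planar cell polarity effector needed for cilia, was at 30.8, 28.6 and 30.7 CPM in scramble, 26.8, 25.7 and 25.97 CPM with siRNA #1, 25.2, 25.4 and 24.4 CPM with siRNA #2 and 21.1, 21.7 and 23.9 CPM with siRNA #3. It fell by 0.30 in the mean (SE 0.04, adjusted p = 0.000114) and by 0.43 with siRNA #3, more than with siRNA #1 (difference 0.23, adjusted p = 0.00202). FUZ and AP2A1 lie on opposite strands with overlapping exons and moved in opposite directions. SPHK2, a kinase that makes sphingosine 1-phosphate, was at 7.68, 7.10 and 7.18 CPM in scramble and between 5.81 and 6.71 CPM in the siRNA libraries. It fell by 0.24 in the mean (SE 0.06, adjusted p = 0.00536), and it shares exon sequence with DBP on the other strand.

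**Figure D4:**
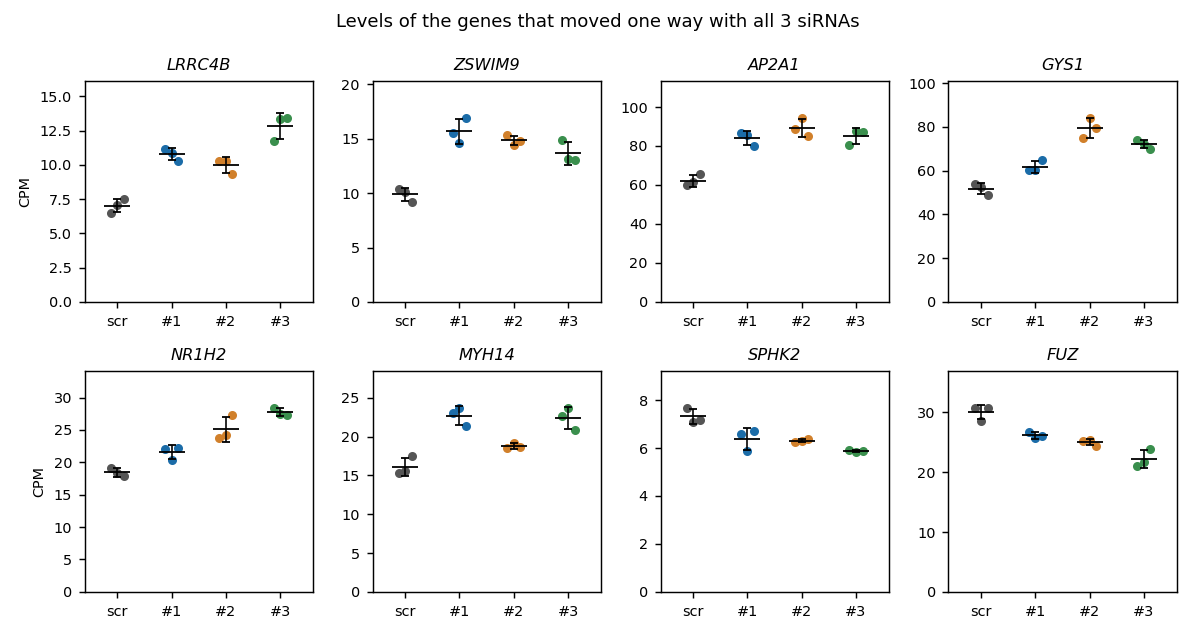
Levels in CPM (vertical axis, from 0) of the 6 genes with the largest rise and the 2 with a fall among those that moved one way with all 3 siRNAs. Points are libraries, bars are mean ± SD (n = 3), scr is scramble. No siRNA library overlaps the scramble libraries in any panel.

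Promoter sequence is printed for the neighbours just described, the nearest tested gene of each cluster and the genes with the largest shared rise and fall. Each runs from 250 bases before to 50 bases after the RefSeq start on the gene's own strand (RefSeq, GRCh38.p14), and the GC box searched, GGGCGG or its reverse complement CCGCCC, is in capitals:
SULT2A1 (chr19:47886266-47886565, minus): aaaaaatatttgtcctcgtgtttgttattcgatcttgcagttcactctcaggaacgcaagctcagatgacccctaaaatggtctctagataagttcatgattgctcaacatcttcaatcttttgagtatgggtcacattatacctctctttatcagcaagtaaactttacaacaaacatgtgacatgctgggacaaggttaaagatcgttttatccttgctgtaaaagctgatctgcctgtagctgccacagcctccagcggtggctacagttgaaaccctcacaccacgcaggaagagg
MYH14 (chr19:50203372-50203671, plus): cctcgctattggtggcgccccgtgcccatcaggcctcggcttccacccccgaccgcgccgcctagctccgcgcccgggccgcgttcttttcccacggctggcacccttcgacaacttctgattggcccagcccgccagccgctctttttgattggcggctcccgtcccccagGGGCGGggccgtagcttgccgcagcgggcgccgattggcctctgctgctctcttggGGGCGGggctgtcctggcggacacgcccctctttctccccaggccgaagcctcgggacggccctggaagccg
LRRC4B (chr19:50550993-50551292, minus): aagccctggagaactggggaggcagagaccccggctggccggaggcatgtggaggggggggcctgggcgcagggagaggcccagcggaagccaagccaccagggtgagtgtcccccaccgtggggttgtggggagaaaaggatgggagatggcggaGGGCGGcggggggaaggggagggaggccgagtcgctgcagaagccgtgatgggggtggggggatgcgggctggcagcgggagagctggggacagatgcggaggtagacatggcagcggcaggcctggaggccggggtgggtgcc
FUZ (chr19:49813243-49813542, minus): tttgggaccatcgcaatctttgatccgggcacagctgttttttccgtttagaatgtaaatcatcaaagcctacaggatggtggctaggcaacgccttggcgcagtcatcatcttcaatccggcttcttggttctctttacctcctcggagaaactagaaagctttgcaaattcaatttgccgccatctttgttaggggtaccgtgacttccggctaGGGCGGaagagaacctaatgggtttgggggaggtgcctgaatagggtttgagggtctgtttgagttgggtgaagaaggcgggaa
The windows of MYH14, LRRC4B and FUZ lie inside the GENCODE span of the gene, which begins further upstream. MYH14 held 2 matches, LRRC4B and FUZ 1 each, and the SULT2A1 window did not hold these letters. G and C made up 42.7% of the SULT2A1 window, 71.7% of those of MYH14 and LRRC4B and 49.3% of that of FUZ. Of the 116 genes, 89 matched a RefSeq promoter entry, with 111 windows, of which 74 (66.7%) held the motif, beside 45.0% of all 35116 windows. The median GC content was 63.7% in the 111 windows and 58.7% in all. The full set, with 27305 symbols, was not limited to protein-coding genes or to chromosome 19, so the 2 sets are unlike. A match is a description of the letters in the window and not a sign that the site is used.

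Some genes responded to 1 siRNA more than to the others. Against scramble and against both other siRNAs, 23 genes at 1 CPM or more were called for siRNA #1, 5 for siRNA #2 and 8 for siRNA #3. That was 33.3%, 7.25% and 11.6% of the 69 genes, near the 38.6%, 8.14% and 9.99% of all genes at 1 CPM or more under the same rule. For siRNA #1 the largest rises were those of LMTK3 and C19orf73. LMTK3, a neuronal kinase gene, was at 4.18, 3.17 and 3.92 CPM in scramble, 6.55, 7.84 and 7.63 CPM with siRNA #1 and between 3.80 and 4.37 CPM with the other siRNAs. It rose by 0.96 (SE 0.11, adjusted p = 9.64e-06) and differed from siRNA #2 by 0.80 and from siRNA #3 by 0.93 (adjusted p = 4.51e-05 and 1.25e-05). C19orf73, a short open reading frame gene that overlaps LIN7B on the other strand, went from 0.937, 0.897 and 0.916 CPM to 1.62, 1.70 and 1.78 CPM (0.89, adjusted p = 0.000146). CARD8, an inflammasome sensor, showed the largest fall, from 47.7, 47.4 and 44.6 CPM in scramble to 28.1, 31.3 and 28.8 CPM with siRNA #1, while it was between 43.5 and 50.5 CPM with the others. CARD8 fell by 0.66 with siRNA #1 (SE 0.05, adjusted p = 5.24e-07), and the mean of siRNA #2 and siRNA #3 was 0.04 (adjusted p = 0.534). Its exons overlap those of ZSWIM9, which lies on the other strand and rose.

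TMEM143, a gene for a mitochondrial membrane protein, moved in opposite directions. It was at 12.4, 12.3 and 12.5 CPM in scramble, 9.02, 9.70 and 9.67 CPM with siRNA #1, 15.2, 16.8 and 14.6 CPM with siRNA #2 and 10.97, 11.7 and 11.9 CPM with siRNA #3. The fall of 0.39 with siRNA #1 (adjusted p = 0.000251) and the rise of 0.33 with siRNA #2 (adjusted p = 0.00194) did not overlap scramble in either case. For siRNA #2, SLC17A7, which encodes the vesicular glutamate transporter VGLUT1, fell by 0.64 (SE 0.11, adjusted p = 0.00067), from 3.11, 3.49 and 3.51 CPM to 2.10, 2.33 and 2.05 CPM, and was between 2.91 and 4.26 CPM with the others. For siRNA #3, EHD2, a gene of caveolar membrane traffic, rose by 0.38 (SE 0.10, adjusted p = 0.0135) from 4.598, 4.67 and 5.54 CPM to 6.66, 6.19 and 6.36 CPM. That call did not hold without scramble replicate 1 (0.33, adjusted p = 0.0588) or replicate 2 (0.34, adjusted p = 0.0546), while the differences from siRNA #1 and siRNA #2 were -0.53 and -0.56 (adjusted p = 0.000747 and 0.00273).

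In all, 7 genes were called higher with 1 siRNA and lower with another, with the difference also called. That was 7.29% of the 96 genes, beside 8.41% of all genes. The 6 besides TMEM143 were singled out after their values were seen. GRWD1, a ribosome assembly factor, was at 40.2, 44.7 and 40.6 CPM in scramble, 65.9, 55.8 and 56.7 CPM with siRNA #1, 34.5, 33.8 and 34.7 CPM with siRNA #2 and 38.5, 33.1 and 36.3 CPM with siRNA #3. EMC10, a subunit of the membrane protein insertase of the endoplasmic reticulum, was at 31.7, 33.9 and 34.2 CPM in scramble, 39.9, 40.5 and 37.7 CPM with siRNA #1 and between 24.9 and 26.7 CPM with the others. Both genes were thus above scramble with siRNA #1 and below it with the other siRNAs in every library. PPFIA3, a presynaptic scaffold gene, rose by 0.86 with siRNA #1 (SE 0.04, adjusted p = 9.18e-09), from 21.2, 20.1 and 21.2 CPM to 38.4, 37.5 and 37.8 CPM, and fell by 0.16 with siRNA #3. NAPA, a SNARE recycling factor, went the other way, with a fall of 0.28 with siRNA #1 and a rise of 0.13 with siRNA #3. HRC, a calcium-binding protein gene of the sarcoplasmic reticulum, and ADM5, an adrenomedullin-related gene, were low, with means over scramble of 0.288 and 0.553 CPM. The change with siRNA #3 passed the test narrowly for some of these. For GRWD1 it was -0.22 (adjusted p = 0.0332), and the call was lost without siRNA #3 replicate 2 (-0.16, adjusted p = 0.147) or replicate 3 (adjusted p = 0.0645), and when scramble replicate 2 (adjusted p = 0.134) or replicate 3 (adjusted p = 0.0551) was left out. For HRC it was -0.87 (adjusted p = 0.0408) and it was lost in 10 settings, with an adjusted p of up to 0.106. For NAPA the adjusted p was 0.0435, and the call was lost in 12 settings, with an adjusted p of up to 0.162. For ADM5 it was -0.80 (adjusted p = 0.0149), and -0.63 (adjusted p = 0.0677) without siRNA #3 replicate 2. PPFIA3 kept its call in all settings but with no filter on low counts (adjusted p = 0.0528) and without siRNA #3 replicate 1 (adjusted p = 0.0545).

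**Figure D5:**
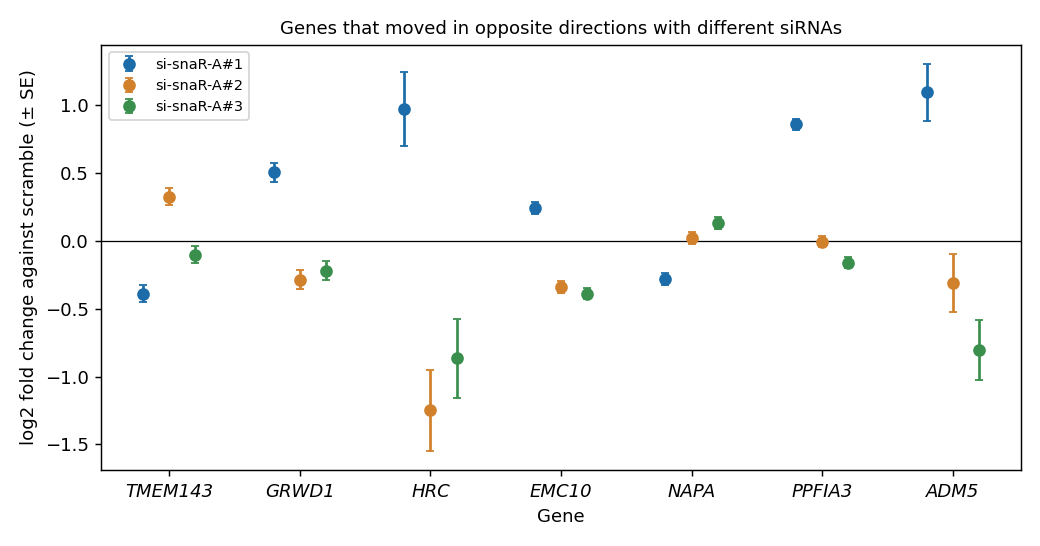
log2 fold change against scramble (vertical axis, ± SE) with each siRNA for the 7 genes called in opposite directions. For 5 of them, GRWD1, HRC, EMC10, PPFIA3 and ADM5, siRNA #1 is above 0 and siRNA #3 below.

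By role, calls higher outnumbered calls lower among nuclear and RNA factors, genes of membrane traffic and the list of channels, transporters and neuronal genes. Percentages over all genes are those given above, with a median log2 fold change of -0.04. Of 13 nuclear and RNA factors, 8 were called with the siRNAs averaged, 7 higher and 1 lower, with a median of 0.12. By siRNA, 9 were higher and 1 lower with siRNA #1, 4 and 2 with siRNA #2, and 3 and 2 with siRNA #3. The largest rise was that of BICRA, a subunit of a SWI/SNF chromatin remodelling complex, from 9.15, 7.33 and 7.37 CPM in scramble to 12.03, 11.7 and 12.2 CPM with siRNA #1, and its mean change was 0.36 (adjusted p = 0.00216). RUVBL2, an ATPase of chromatin remodelling and of snoRNP assembly, rose by 0.30 (adjusted p = 0.0001), from 106, 113 and 119 CPM to between 134 and 147 CPM in the 9 siRNA libraries.

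Of 10 genes of membrane traffic, 5 were called, 4 higher and 1 lower. The median was 0.03, and -0.0025 under upper quartile scaling. Besides AP2A1 these were KDELR1, the receptor that returns proteins to the endoplasmic reticulum, NUCB1, a Golgi calcium-binding protein, and RCN3, a calcium-binding protein of the secretory pathway, with EMC10 lower. KDELR1 was the most abundant gene of the stretch in CPM, at 213, 224 and 240 CPM in scramble and between 234 and 278 CPM in the siRNA libraries, a rise of 0.22 (adjusted p = 0.00272) with overlapping libraries. NUCB1 rose by 0.31 with each siRNA and from 66.4, 69.0 and 71.6 CPM to between 81.7 and 88.5 CPM. The call of RCN3 (0.28, adjusted p = 0.0343) came from siRNA #1, and in the mean of the other siRNAs its change was 0.09 (adjusted p = 0.549). It was also lost without scramble replicate 1 (adjusted p = 0.0911) or replicate 2 (0.21, adjusted p = 0.170), without siRNA #1 replicate 2 (adjusted p = 0.0520), and without siRNA #2 replicate 1, siRNA #2 replicate 2 or siRNA #3 replicate 2 (adjusted p of 0.0546, 0.0536 and 0.0549).

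Of 14 genes for channels, transporters and neuronal proteins, 5 were called higher, with a median of 0.16. These were LRRC4B, LMTK3, PPFIA3, GRIN2D, an NMDA receptor subunit (0.34), and MYH14. The list holds MYH14 although it encodes a nonmuscle myosin heavy chain. In edgeR's test none of the 14 was called lower, 1 was lower at an unadjusted p under 0.05, and DESeq2 and limma-voom also called 0 lower. With siRNA #1, 7 were called higher and the median was 0.44. In the mean of siRNA #2 and siRNA #3 the count was 3 higher and 1 lower, and the median was -0.04. NTF4, a neurotrophin gene, was at 0.536, 0.218 and 0.167 CPM in scramble, with a change of -0.49 (adjusted p = 0.354).

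Among 15 tested metabolic genes and iron or selenium proteins, falls outnumbered rises, with 3 higher, 5 lower and a median of -0.20, and with 2 higher and 2 lower in the mean of siRNA #2 and siRNA #3. GYS1, BCAT2 and ALDH16A1 rose. SULT2A1, SPHK2, FUT1, CPT1C and FTL fell. FUT1, the fucosyltransferase that makes the H antigen, was at 1.26, 1.32 and 1.16 CPM in scramble, 0.821, 0.485 and 0.706 CPM with siRNA #1, 0.824, 0.612 and 0.718 CPM with siRNA #2 and 1.57, 1.70 and 1.42 CPM with siRNA #3. It fell by 0.90 and 0.80 with the first and second siRNA (adjusted p = 0.0014 and 0.00628), and differed from siRNA #3 by -1.22 and -1.12. The call of FUT1 in the mean (-0.45, adjusted p = 0.0282) was lost without any 1 of the scramble libraries (adjusted p of 0.0863, 0.108 and 0.0557). FUT2, its neighbour for secreted H antigen, was at 0.211, 0.0808 and 0.340 CPM in scramble, and its change of -0.80 (adjusted p = 0.0831) was -1.17 (adjusted p = 0.00772) without scramble replicate 2.

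Transcription factors were split, with NR1H2 and MAMSTR higher and TEAD2 and DBP lower of 7. TEAD2, a DNA-binding partner of YAP, was at 30.3, 30.97 and 29.8 CPM in scramble, 32.5, 31.4 and 30.0 CPM with siRNA #1, 21.1, 22.1 and 21.6 CPM with siRNA #2 and 22.6, 23.7 and 23.4 CPM with siRNA #3. It fell by 0.49 and 0.39 with siRNA #2 and siRNA #3 (adjusted p = 3.62e-06 and 2e-05), and the difference of siRNA #1 from each was 0.54 and 0.43 (adjusted p = 4.19e-07 and 2.47e-06). MAMSTR, a coactivator of MEF2, rose with siRNA #1 by 0.73 (adjusted p = 0.000198), from 1.81, 1.97 and 2.25 CPM to 3.31, 3.34 and 3.33 CPM. Its call in the mean (0.38, adjusted p = 0.00827) did not hold without scramble replicate 1 (0.31, adjusted p = 0.0560) and without siRNA #1 (0.21, adjusted p = 0.136). SPIB, a lymphoid factor, was at or below 0.593 CPM.

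Of 11 tested genes of cell death, kinase and growth signalling, 3 were called higher and 2 lower. AKT1S1, the mTORC1 subunit PRAS40, was at 39.8, 41.8 and 44.9 CPM in scramble and between 45.4 and 58.5 CPM in the siRNA libraries, a rise of 0.29 (adjusted p = 0.000125). EMP3, a small membrane protein, rose with siRNA #1 by 0.29 and with siRNA #3 by 0.38 (adjusted p = 0.0111 and 0.00415), the former not passing without replicate 1 of siRNA #1 (adjusted p = 0.0508) or scramble replicate 2 (adjusted p = 0.0551). The call of EMP3 in the mean (0.21, adjusted p = 0.0296) was lost without scramble replicate 1 (adjusted p = 0.0980), scramble replicate 2 (0.14, adjusted p = 0.183) or siRNA #2 replicate 3 (adjusted p = 0.0501). KPTN, an mTORC1 regulator of the KICSTOR complex, was at 7.19, 6.29 and 6.80 CPM in scramble, and its change of -0.21 (adjusted p = 0.0516) passed without siRNA #1 replicate 3 (adjusted p = 0.0271).

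Most genes for sperm, immune and placental functions were at low levels in these libraries. Of 6 tested sperm and testis genes, 1 was called, IZUMO1, the sperm protein that binds the egg, which fell by 0.88 (adjusted p = 0.0291). IZUMO1 was at 1.06, 0.477 and 0.582 CPM in scramble and between 0.200 and 0.585 CPM in the siRNA libraries, and its change was -0.46 (adjusted p = 0.310) without scramble replicate 1, whose level was the highest, and -0.84 (adjusted p = 0.0514) without siRNA #2 replicate 1. TSKS, DKKL1 and ODAD1 had changes of -0.33, -0.16 and -0.12 (adjusted p = 0.226, 0.773 and 0.635). Among the 5 tested immune genes, edgeR called 0 in the mean of the siRNAs, with 0 at an unadjusted p under 0.05 and 0 called by DESeq2 or limma-voom. FCGRT, the neonatal Fc receptor, was the immune gene with a sizeable level, at 13.3, 13.9 and 15.1 CPM in scramble, and it fell by 0.31 with siRNA #1 (adjusted p = 0.00653). CD37, a leukocyte tetraspanin gene, was at or below 0.192 CPM. The 13 tested genes in none of these lists had 2 called, both higher.

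The gonadotropin beta genes are of interest because snaR-G copies lie beside them, SNAR-G1 125 bases from CGB1 and SNAR-G2 beside CGB2. Of the 7 genes, CGB2 and CGB7 passed the filter on low counts. CGB2 was at 0.0217, 0.0242 and 0.0557 CPM in scramble, 0.0885, 0.0741 and 0.118 CPM with siRNA #1, 0.0536, 0.0427 and 0.0312 CPM with siRNA #2 and 0.0516, 0.0371 and 0.0485 CPM with siRNA #3. It was called higher with siRNA #1 (1.43, SE 0.47, adjusted p = 0.0244), a call that was lost in 6 settings, among them without scramble replicate 1 (1.17, adjusted p = 0.102) or replicate 2 (adjusted p = 0.0860), without replicate 1 (adjusted p = 0.0509) or 3 (adjusted p = 0.0905) of siRNA #1 and with DESeq2 (adjusted p = 0.0854), while in the mean its change was 0.73 (adjusted p = 0.208). CGB7 was between 0.113 and 0.574 CPM with overlapping groups. These values are uncertain because both genes share sequence with others. Of the words of 31 bases in CGB2 transcripts, 71.6% also occur in transcripts of other genes, as do 56.5% of those in CGB7. For LHB the share was 9.23%. Over the 116 genes the median of that share was 3.38%, and 13 genes exceeded 50%, CGB1, CGB3, CGB5 and CGB8 among them. In edgeR's test of the mean, 0 of the 2 genes was called, with 0 at an unadjusted p under 0.05 and 0 by DESeq2 or limma-voom.

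Per kb of exon, the most abundant genes of the stretch were FTL, KDELR1, RUVBL2, PRMT1 and NOP53, at 177, 113, 37.7, 29.3 and 24.97 CPM per kb. FTL, the ferritin light chain that stores iron, was at 156, 160 and 175 CPM in scramble, 145, 144 and 130 CPM with siRNA #1, 164, 166 and 166 CPM with siRNA #2 and 143, 149 and 147 CPM with siRNA #3. It fell with siRNA #1 by 0.23 and with siRNA #3 by 0.16 (adjusted p = 0.00222 and 0.0281), the latter call being lost without any 1 library of siRNA #3 (adjusted p of 0.0942, 0.0553 and 0.0565) or without scramble replicate 3 (-0.11, adjusted p = 0.141). The call in the mean of the siRNAs (-0.13, adjusted p = 0.0305) was lost in 8 settings, among them without scramble replicate 3 (-0.07, adjusted p = 0.289) or scramble replicate 2 (adjusted p = 0.0571), without siRNA #2 replicate 1 or 2 or siRNA #3 replicate 1 (adjusted p of 0.0560, 0.0501 and 0.0506), and in the mean of siRNA #2 and siRNA #3 (adjusted p = 0.217). FTL also shares 33.5% of its words of 31 bases with other genes. PRMT1, the main asymmetric arginine methyltransferase, rose by 0.40 with siRNA #1 (SE 0.04, adjusted p = 1.4e-06), from 126, 122 and 130 CPM to 168, 165 and 166 CPM, and by 0.13 with siRNA #2 (adjusted p = 0.0150), where it was at 140, 137 and 138 CPM. The latter call was lost without replicate 1 of siRNA #2 (adjusted p = 0.0618) or scramble replicate 2 (adjusted p = 0.0751) and under upper quartile scaling (0.09, adjusted p = 0.0790). NOP53, a ribosome biogenesis factor 152.9 kb from the first cluster, was between 120 and 141 CPM in all 12 libraries, with a change of 0.02 (adjusted p = 0.709).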

How the data were processed

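Libraries from HEK293T cells were prepared by the authors from rRNA-depleted, poly(A)+ RNA with a stranded kit, trimmed with Trim Galore and quantified with Salmon on hg38. The deposited table holds estimated counts per Ensembl gene, which the authors derived from Salmon and which may carry a scaling by transcript length. The annotation release, whether strand was used and how transcripts were summed per gene are not given in the sources used here. Values were rounded, filtered with filterByExpr, scaled by TMM and fitted for all 12 libraries and 4 groups with edgeR 4.0.16 (R 4.3.3, quasi-likelihood F test, 8 residual degrees of freedom). p-values were adjusted by Benjamini-Hochberg over 21999 genes, with a threshold of 0.05 for a call. Adjusted p-values in the text come from that test unless another tool is named. SE is that of the log2 fold change. CPM used TMM-scaled library sizes, and totals were between 120.4 and 180.1 M counts, so counting error is small above 1 CPM. Alternatives used RLE and upper quartile scaling, other filters, the edgeR exact test, DESeq2 1.42.0, limma-voom 3.58.1, the replicate number as a block and the removal of each library. The mean of siRNA #2 and #3 was added after seeing the data. The fit was also run on simulated counts with 200 genes changed in the siRNA #1 group. Those counts were drawn with the means and dispersions estimated here, so they cannot show how well the model suits the real data.

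The genes, the lists by role and the distance bins were chosen with earlier results of these data known. Genes described individually were the 5 tested genes nearest each cluster, those with the largest changes shared by the 3 siRNAs or particular to 1, the 5 most abundant per kb, the tested gonadotropin beta genes, and the members of each list with the largest changes. Other genes, given to name the members of a small count, were chosen after their values were seen. The level of snaR-A was not analysed here. Values of 1 further gene that the rule names are not reported here.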

Additional observations from a re-analysis of the deposited data

Results flagged for a closer look

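For 7 genes around snaR-A, 2 siRNAs gave calls in opposite directions and the difference between them also passed edgeR's quasi-likelihood test. They were 7.29% of the 96 genes tested, beside 8.41% of all 21999 genes under the same rule. For siRNA #1 minus siRNA #2 the log2 difference was -0.72 for TMEM143 (adjusted p = 1.31e-06), 0.79 for GRWD1 (adjusted p = 1.37e-06), 2.22 for HRC (adjusted p = 4.52e-05) and 0.58 for EMC10 (adjusted p = 2.6e-07). For siRNA #1 minus siRNA #3 it was -0.41 for NAPA (adjusted p = 6.95e-06), 0.73 for GRWD1 (adjusted p = 2.55e-06), 1.02 for PPFIA3 (adjusted p = 1.64e-09), 1.84 for HRC (adjusted p = 0.000168), 1.90 for ADM5 (adjusted p = 1.21e-05) and 0.63 for EMC10 (adjusted p = 1.1e-07). Between siRNA #2 and siRNA #3 there were 0 such genes by the same rule. All 10 differences involved the siRNA #1 libraries. Over all genes, 46.7% differed between siRNA #1 and siRNA #2 and 48.6% between siRNA #1 and siRNA #3. Between siRNA #2 and siRNA #3 it was 15.6% of all genes. The cause of the 10 differences was not tested. The exons of GRWD1 and KCNJ14 overlap on the same strand and those of EMC10 and GARIN5A also overlap.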

How the results depend on the processing

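The values recomputed for named genes were those in the mean of the siRNAs and, for genes particular to 1 siRNA or opposite between siRNAs, those with single siRNAs. Each value was compared once per setting, so the counts are of comparisons and a value can be counted many times. In 1492 comparisons the direction and side of the threshold were kept, in 73 a call was lost and in 12 one was gained. In 1 the direction reversed: CARD8 was 0.04 (log2) in the mean of siRNA #2 and siRNA #3, the siRNA #1 libraries left out by construction. A further 27 losses, for other values with single siRNAs or between siRNAs, were of SULT2A1, CGB2, FTL, PRMT1, LRRC4B and EMP3. The median log2 fold change within 100 kb was 0.13 with genes at 1 CPM or more and 0.055 below 250 kb when 2 bins were used, and from -0.33 to -0.060 with each library left out. From 100 to 250 kb it was 0.053 with genes at 1 CPM or more, 0.055 when distance was taken from the transcription start, and from 0.0092 to 0.15 with each library left out. For 500 kb and beyond it was -0.051 when the bins were merged at 250 kb, and from -0.15 to -0.069 with each library left out. Between siRNA #2 and siRNA #3, 9 to 19 genes were called with each library left out. The counts called in the other comparisons stayed within 1.5 times, from 31 to 45 for the mean, 42 to 51 for siRNA #1, 23 to 32 for siRNA #2 and 23 to 36 for siRNA #3. With the replicate number as a block, 38, 50, 26 and 32 genes were called in the same order, and 15 between siRNA #2 and siRNA #3. The numbers did not pair the libraries, since only 5 of 18 same-numbered pairs had a correlation of deviations over 0.1 (range -0.236 to 0.172). The edgeR exact test compares pairs of groups and was not run for the mean. Genes under 1 CPM, 27 of 96, limit what can be detected.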

Other observations

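One noncoding gene spans most of the second snaR-A cluster. ENSG00000287001, annotated as a lncRNA on the minus strand at chr19:50095898-50148302, holds 11 snaR genes within its span, all on its strand, 8 of them snaR-A, and 0 of the 11 touch one of its exons. Its level was 32.9, 24.6 and 20.7 CPM in scramble, 13.4, 13.5 and 20.5 CPM with siRNA #1, 15.1, 16.9 and 17.6 CPM with siRNA #2 and 16.4, 14.9 and 16.6 CPM with siRNA #3. All siRNA libraries were below the scramble libraries, though 1 library of siRNA #1 came close to the lowest. It fell by 0.72 (SE 0.17, adjusted p = 0.00420), 0.66 (SE 0.17, adjusted p = 0.0141) and 0.71 (SE 0.17, adjusted p = 0.00812) with the 3 siRNAs in that order, by edgeR's quasi-likelihood test over all genes. In the mean it fell by 0.70 (adjusted p = 0.00166), and with each library left out the change was between -0.83 and -0.49. The call with siRNA #2 was lost in 2 of 20 settings, without scramble replicate 1 (-0.45, adjusted p = 0.0687), whose level was the highest in scramble, and without replicate 1 of siRNA #2 (-0.59, adjusted p = 0.0582).

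Of 78 noncoding genes of the stretch, 16 passed the filter on low counts, and 2 of these (12.5%, beside 32.2% of all genes) were called when the siRNAs were averaged, both lower. With siRNA #1, 6 of the 16 were called, 5 higher and 1 lower. With siRNA #2 and siRNA #3 there were 4 and 2, all lower. Of all genes, 45.2%, 25.8% and 29.4% were called with the 3 siRNAs in that order. Those called higher were 21.9%, 13.7% and 16.5% of all genes, and those called lower 23.3%, 12.1% and 13.0%. A difference between the 16 genes and all genes was not tested. Besides ENSG00000287001, the gene called in the mean was PTOV1-AS2, an antisense RNA on the minus strand at chr19:49856970-49859289 (-0.46, SE 0.15, adjusted p = 0.0355). That call was lost when any 1 of 9 libraries was left out, with an adjusted p between 0.0534 and 0.221, the largest without scramble replicate 1 (-0.32). It was at 1.68, 1.29 and 1.29 CPM in scramble, 1.30, 1.37 and 2.02 CPM with siRNA #1, 1.00, 0.946 and 0.858 CPM with siRNA #2 and 0.722, 0.638 and 0.913 CPM with siRNA #3. With siRNA #1 its libraries overlapped those of scramble, and the difference between siRNA #1 and siRNA #3 was 1.05 (adjusted p = 0.000681).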
